A study of Mus musculus with 9 samples.

Results

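The ubiquitin-conjugating enzymes, or E2 enzymes, were taken as every gene whose symbol begins with Ube2 in the deposited table, leaving out names marked as pseudogenes. The rule found 37 of the 25655 genes, and 0 names had to be left out. The cells were immortalized mouse podocytes of wild-type genotype, a conditionally growing line derived from the filtering epithelium of the kidney, and all of them were grown with interferon-γ at a permissive temperature and then differentiated at a higher temperature without it. They were transfected with a negative control siRNA, with siRNA 1 against Usp40 (s105625) or with siRNA 2 against Usp40 (s105626), and polyadenylated RNA was sequenced 48 h later in 3 libraries per group. All 9 libraries carry the same batch label, and the labels call them biological replicates without naming separate cultures, so the p-values below measure only the spread between these libraries.

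An E2 enzyme takes ubiquitin, or a relative such as SUMO, NEDD8 or ISG15, from an activating E1 enzyme onto a catalytic cysteine and hands it on to a substrate, in most cases together with an E3 ligase. The E2 decides in large part which chain is built. Some E2s attach the first ubiquitin, others extend chains that lead to the proteasome, and others build signalling chains. Usp40 encodes a deubiquitinating enzyme, which acts on the opposite side of the same cycle.

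The library totals ran from 9786270 to 13675426 gene counts. The E2 genes held between 0.374% and 0.45% of the counts of a library. Every siRNA library held less Usp40 than any of the controls, at 31.8, 33.8 and 40.9 CPM in controls (counts scaled to a common library size), 14.7, 15.6 and 16.9 CPM with siRNA 1 and 19.2, 17.3 and 21.2 CPM with siRNA 2 (log2 fold changes -1.18 and -0.88). Of 13 podocyte marker genes, 7 had enough counts to be tested, among them Synpo, Podxl and Cd2ap, while those without enough counts included the slit diaphragm gene Nphs1, the transcription factors Wt1, Tcf21 and Lmx1b, and Ptpro. The summed level of the podocyte markers lay between 483 and 662 TPM in the 9 libraries, a level scaled for transcript length and depth. Most of it came from Actn4 and Cd2ap, with means of 283 and 181 TPM in the controls. Enough counts were found for 4 of 6 mesangial, 0 of 5 endothelial, 4 of 7 tubular or parietal and 2 of 5 immune markers. In that order, the markers of these cells summed to 48.0 to 71.7, 0.104 to 0.395, 220 to 276 and 13.4 to 27.6 TPM. These are bulk samples, in which fewer cells of a type and less RNA per cell cannot be told apart.

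The results below turn on members of a pair of small E2 families, UBE2D and UBE2E, whose proteins are alike around the catalytic cysteine. The coding sequence from the histidine codon that opens the catalytic motif is shown for 90 bases, to make visible how far the transcripts of near relatives can be told apart. Sequences are from the GENCODE mouse transcripts on build GRCm39, 5′ to 3′. The histidine is residue 75 and the cysteine residue 85 in Ube2d1 and Ube2d3. Capitals mark the bases that differ from Ube2d1.
Ube2d1: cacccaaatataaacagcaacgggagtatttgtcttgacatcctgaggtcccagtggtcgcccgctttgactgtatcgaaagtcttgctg
Ube2d3: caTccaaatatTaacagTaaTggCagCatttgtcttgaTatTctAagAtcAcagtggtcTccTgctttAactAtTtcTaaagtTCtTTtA
The Ube2d3 stretch differs from that of Ube2d1 at 22 of 90 bases. Their longest identical run there was 11 bases. Over all 441 coding bases it was 14, against sequenced reads of 36 bases, while the proteins were 88.4% identical. Ube2d2a, the other main gene of the family, also differed from Ube2d1 at 22 bases of the stretch. Ube2d2a and Ube2d3 were not compared with each other in this way. In the UBE2E family the histidine and cysteine are residues 135 and 145 in Ube2e3, 121 and 131 in Ube2e1, and 129 and 139 in Ube2e2. Capitals mark the bases that differ from Ube2e3.
Ube2e3: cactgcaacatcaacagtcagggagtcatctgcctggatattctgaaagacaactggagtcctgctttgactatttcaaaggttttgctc
Ube2e1: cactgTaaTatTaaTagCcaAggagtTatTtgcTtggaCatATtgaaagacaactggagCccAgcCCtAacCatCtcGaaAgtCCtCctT
Ube2e2: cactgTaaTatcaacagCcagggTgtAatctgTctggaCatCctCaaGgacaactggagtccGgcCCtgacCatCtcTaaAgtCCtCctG
Ube2e1 and Ube2e2 differed from Ube2e3 at 25 and 21 bases of the stretch, with longest identical runs there of 16 and 14 bases. Runs over their whole coding sequences, which differ in length, were not measured. Other annotated genes can also hold E2 sequence, for example as processed copies. Every stretch of 36 coding bases was therefore looked up in all other annotated transcripts, except those of genes that overlap the member in position. The kind of gene that held a match was not classified. Over whole transcripts the gene sharing most was Spopl for Ube2d3 and Heatr5b for Ube2c. None of the coding stretches of Ube2d1, Ube2j1 and Ube2k occurred in another gene, and 6.31% of those of Ube2e3 and 12.35% of those of Ube2c did. For Ube2d3 and Ube2f the shares were 70.44% and 66.15%, for Ube2v1 87.5%, for Ube2s 94.32%, and for Ube2d2a, Ube2n and Ube2l3 100%. Ube2e1, Ube2j2, Ube2q2, Ube2h and Ube2v2 had shares from 47.43% to 87.59%. Over whole transcripts, with their untranslated parts, the shares were 7.48% for Ube2f, 10.99% for Ube2n, 15.56% for Ube2c, 17.87% for Ube2l3, 43.63% for Ube2d3, 50.55% for Ube2d2a, 74.73% for Ube2s and 87.17% for Ube2v1. The authors' treatment of reads with several matches was not given in the sources used here, so the values of genes with shared stretches are uncertain in that respect.

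In control cells the E2 genes covered a wide range of levels, compared here in TPM. In these libraries 12 members lay above 100 TPM, 19 between 10 and 100, 1 between 1 and 10 and 5 below 1. The median level of the 33 members with enough counts to be tested was 92.2 TPM, against 25.7 TPM over all 11800 genes tested. Ube2v1, a catalytically inactive E2 variant that pairs with Ube2n to build chains linked through lysine 63 of ubiquitin, had 250, 280 and 282 TPM. Ube2d3, a broadly acting E2 that serves many E3 ligases, had 292, 258 and 248 TPM. Ube2s, which extends chains on substrates of the anaphase-promoting complex, had 230, 287 and 261 TPM. These 3 genes overlapped in level, and their means of 270.4 ± 17.6, 266.1 ± 22.9 and 259.3 ± 28.9 TPM (SD, n = 3) could not be put in order. Ube2d2a, a close relative of Ube2d3, followed at 212.0 ± 7.31 TPM, and Ube2m, which carries NEDD8 to cullins, at 198.3 ± 9.06 TPM (SD, n = 3 each). The gap from Ube2s to Ube2d2a was larger than the sum of their SDs, and that from Ube2d2a to Ube2m was not. These 5 genes held 36.8% of the summed E2 level, and the same 5 led when the deposited RPKM values were used instead.

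**Figure D1:**
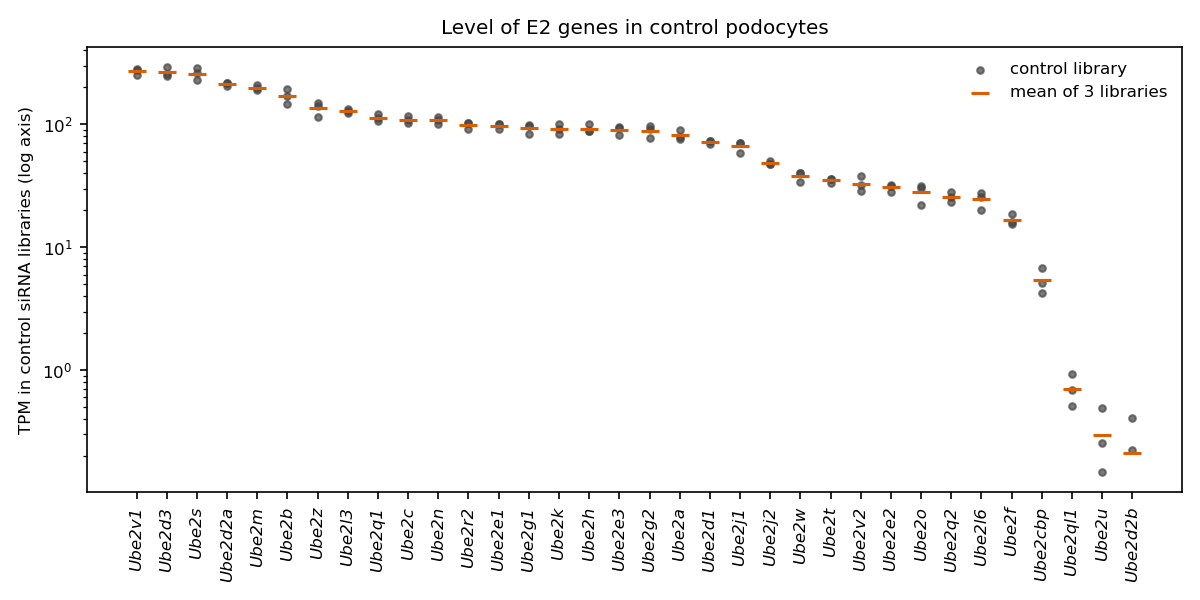
Level of E2 genes in the 3 control siRNA libraries, in TPM on a log axis, with genes in order of their mean; points are libraries and bars are means of 3 libraries. Ube2v1, Ube2d3 and Ube2s lead at means of 270.4, 266.1 and 259.3 TPM, most members lie between 10 and 100 TPM or above, and Ube2ql1, Ube2u and Ube2d2b lie below 1 TPM.

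Further down the order, the levels fell without clear steps. Of the 34 pairs of neighbours in the order, 8 differed by more than the sum of their SDs. The other members above 100 TPM included, in falling order, Ube2b, a RAD6 enzyme of DNA damage tolerance, Ube2z, which is charged by the E1 enzyme Uba6, Ube2l3, which works with HECT and RBR ligases, Ube2q1, Ube2c, which starts chains for the anaphase-promoting complex, and Ube2n. A step larger than the spread lay between Ube2j1, an E2 anchored in the endoplasmic reticulum membrane (66.6 ± 6.73 TPM), and its relative Ube2j2 below it. Another lay between Ube2f, the other NEDD8 enzyme (16.8 ± 1.68 TPM), and Ube2cbp, a gene named for binding UBE2C and not itself an E2 (5.38 ± 1.28 TPM, SD, n = 3 each). At the bottom, 4 members did not have enough counts to be tested. Ube2u had between 1 and 9 counts in a library, and Ube2d2b had 2, 3 and 0 in the controls. Ube2d2b had 1 count in all siRNA libraries together and lies within Evi5, on its opposite strand. Ube2dnl1 and Ube2dnl2, neighbouring genes on the X chromosome, had 0 counts in every library, which allows up to 3 counts per library.

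With siRNA 1, 1 E2 gene passed the test against the controls, and it fell. Ube2e3 (ENSMUSG00000027011, GRCm39 chromosome 2, 78698468 to 78751637, plus strand) encodes a member of the UBE2E family, broadly acting E2s with an extended N-terminal tail. It had 129, 119 and 105 CPM in the controls, 81.9, 65.1 and 70.1 CPM with siRNA 1 and 103, 99.6 and 95.5 CPM with siRNA 2. All siRNA 1 libraries lay below all others, and the siRNA 2 libraries lay just under the lowest control. Ube2e3 fell by 38.5% with siRNA 1 (edgeR log2 fold change -0.70, SE 0.0974, adjusted p = 0.00424). With siRNA 2 its log2 fold change was -0.24 (SE 0.096, edgeR adjusted p = 0.101), and the siRNAs differed by -0.46, siRNA 1 being lower (SE 0.0975, edgeR adjusted p = 0.0148). The call against the controls held with each library left out in turn. The difference between the siRNAs lost its call without siRNA 1 replicate 3 or siRNA 2 replicate 1 or 2, at edgeR adjusted p of 0.0842, 0.0716 and 0.0597.

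The single fall among 33 tested E2 genes with siRNA 1 is 3.03% of them, against 1.03% of all genes tested that fell in the same comparison. No member rose by edgeR, where 0.627% of all genes did, and 0 members were higher at an unadjusted p under 0.05 or by DESeq2. At an unadjusted p under 0.05, 7 of 33 E2 genes were lower, where 6.78% of all genes were lower and 6.85% higher. DESeq2 called 1 E2 gene lower, the same one, and of all genes it tested 1.55% lower and 0.948% higher. The median log2 fold change of the E2 genes was -0.08, beside 0.01 over all genes tested, and 24 of 33 values were negative, beside 5737 of 11800. The siRNA 1 and control libraries did not overlap in 7 of 33 members, all lower with siRNA 1. Of all genes tested, 8.65% were lower and 7.94% higher without overlap.

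With siRNA 2, 7 E2 genes fell and 0 rose. The falls ranged from -0.74 to -0.26 on the log2 scale and included all 3 main UBE2D genes. This was 21.2% of the tested members, where 8.4% of all genes tested fell and 7.81% rose in this comparison. At an unadjusted p under 0.05, 16 of 33 E2 genes were lower and 0 higher by edgeR. Of all genes, 16.7% were lower and 17% higher. DESeq2 called 8 E2 genes lower and 0 higher, and 9.13% of all genes it tested lower and 8.92% higher. The median log2 fold change of the E2 genes was -0.18, beside -0.01 over all genes, and 28 of 33 values were negative, beside 6015 of 11800. The siRNA 2 and control libraries did not overlap in 20 of 33 members, all lower with siRNA 2. Of all genes, 19.1% were lower and 19.5% higher without overlap. Leaving out control replicate 2 or 3 changed the count of 7 to 4 and 13, and leaving out siRNA 2 replicate 2 or 3 changed it to 4 and 3. The share of all genes that fell moved with it, from 8.4% to 5.07% and 11.2% without those controls and to 4.48% and 3.26% without those siRNA 2 libraries. Both siRNAs were compared with the same 3 control libraries, so these comparisons are not independent of each other.

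**Figure D2:**
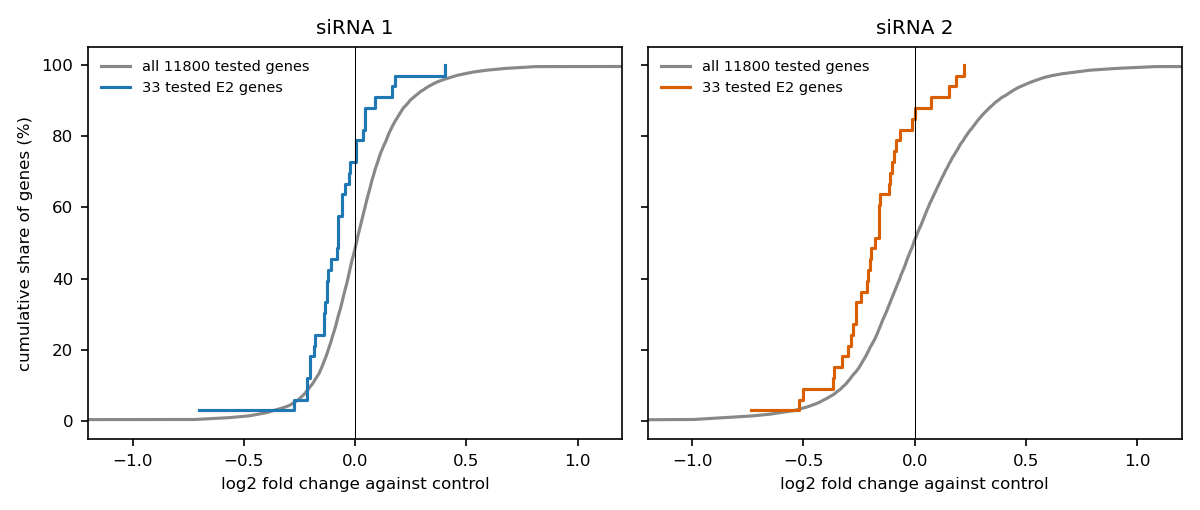
Cumulative share of genes by log2 fold change against the control siRNA, on the left for siRNA 1 and on the right for siRNA 2, for the 33 tested E2 genes (coloured steps) and all 11800 tested genes (grey line). The E2 steps lie to the left of the grey line over most of the range, with medians of -0.08 beside 0.01 for siRNA 1 and -0.18 beside -0.01 for siRNA 2.

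Fold changes followed transcript length across all genes tested, with a Spearman correlation of 0.255 for siRNA 1 and 0.384 for siRNA 2 over 11800 genes of the same libraries, shorter transcripts being lower. The E2 genes had a median length of 3576.5 bases, against 3800.77 over all genes. With an offset for gene length in the fit, the median of the E2 genes with siRNA 2 was -0.17 and all 7 calls remained. The choice of scale shifts all genes together. On a log2(TPM + 1) scale the median of all genes with siRNA 2 was 0.10, which is 0.10 above its value on the CPM scale. The E2 median was then -0.07, and its distance from the median of all genes was -0.16, against -0.18 on the CPM scale. On that scale limma called 5 of 33 E2 genes lower and 0 higher with siRNA 2, without Ube2f and Ube2c. Of all genes it called 3.98% lower and 11.2% higher.

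The UBE2D genes made up 3 of the 7 calls with siRNA 2. UBE2D enzymes work with very many RING and U-box ligases and often place the first ubiquitin. Ube2d1 (ENSMUSG00000019927, chromosome 10, 71090810 to 71121092, minus strand) had 47.2, 42.7 and 41.3 CPM in the controls, 42.4, 39.4 and 38.2 CPM with siRNA 1 and 26.9, 26.8 and 25.1 CPM with siRNA 2. The siRNA 2 libraries lay far below all others, while the siRNA 1 libraries overlapped the controls. Ube2d1 fell by 39.9% with siRNA 2 (edgeR log2 fold change -0.74, SE 0.0816, adjusted p = 0.000196). With siRNA 1 the log2 fold change was -0.13, with a 95% interval from -0.30 to 0.04. The siRNAs differed by 0.61 (SE 0.082, edgeR adjusted p = 0.00084).

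Ube2d3 (ENSMUSG00000078578, chromosome 3, 135143910 to 135173959, plus strand) had 627, 497 and 490 CPM in the controls, 518, 467 and 492 CPM with siRNA 1 and 369, 386 and 371 CPM with siRNA 2. Its first control library stood above the others, and the siRNA 2 libraries were the lowest. Ube2d3 fell by 30.3% with siRNA 2 (edgeR log2 fold change -0.52, SE 0.0937, adjusted p = 0.00405). It had -0.13 with siRNA 1 (95% interval -0.33 to 0.08). The calls of Ube2d1 and Ube2d3 with siRNA 2 held with each library left out in turn. The difference of Ube2d3 between the siRNAs (0.39, SE 0.0936, edgeR adjusted p = 0.0265) lost its call without siRNA 1 replicate 1 or 3 or any siRNA 2 replicate, where edgeR gave adjusted p from 0.0796 to 0.115.

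Ube2d2a (ENSMUSG00000091896, chromosome 18, 35904611 to 35942547, plus strand) had 242, 217 and 209 CPM in the controls, 212, 206 and 216 CPM with siRNA 1 and 184, 181 and 178 CPM with siRNA 2. Only its siRNA 2 libraries stood clear of the controls. It fell by 18.8% with siRNA 2 (edgeR log2 fold change -0.30, SE 0.0687, adjusted p = 0.0142). That call ended without siRNA 2 replicate 2 or 3, at edgeR adjusted p of 0.0544 and 0.0747, and the direct comparison of the siRNAs did not pass (0.22, SE 0.0687, edgeR adjusted p = 0.0777).

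Summed over Ube2d1, Ube2d2a and Ube2d3, the family's level was 550.2 ± 29.7 TPM in the controls, 514.6 ± 6.94 TPM with siRNA 1 and 433.8 ± 4.03 TPM with siRNA 2 (SD, n = 3 each). The siRNA 2 sum was 78.8% of the control sum. Ube2d1 supplied 13.1% of the sum in the controls and 10.8% with siRNA 2. In TPM the UBE2E genes showed the other order. Their sum was 219.0 ± 14.3 TPM in the controls, 178.0 ± 10.2 TPM with siRNA 1 and 213.6 ± 2.04 TPM with siRNA 2 (SD, n = 3 each), or 81.3% and 97.5% of control. Ube2e3 supplied 41.4% of that sum in the controls and 31.4% with siRNA 1. Its relatives Ube2e1 and Ube2e2 had log2 fold changes of -0.12 and 0.05 with siRNA 1 and -0.18 and 0.18 with siRNA 2, none past the edgeR threshold. With siRNA 2 the median of all genes lay 0.10 higher on the log2(TPM + 1) scale than on the CPM scale. On the CPM scale Ube2e3, Ube2e1 and Ube2e2 stood at 84.5%, 88.2% and 113.7% of control with siRNA 2. Ube2d1, Ube2d3 and Ube2d2a stood at 60.1%, 69.7% and 81.2%. The shares of control given for the TPM sums therefore depend on the scale.

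**Figure D3:**
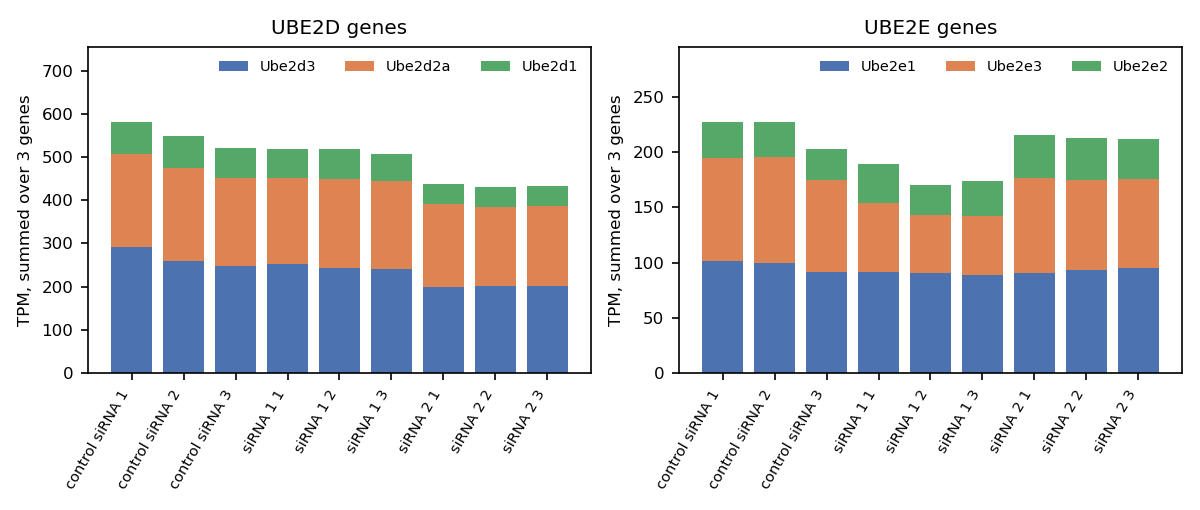
Level of the UBE2D genes (left) and UBE2E genes (right) in each library, in TPM stacked by gene from 0; each bar is 1 library. The UBE2D bars are lowest in the siRNA 2 libraries, at a mean of 433.8 against 550.2 TPM in controls, and the UBE2E bars are lowest in the siRNA 1 libraries, at 178.0 against 219.0 TPM.

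The remaining broadly acting E2s, Ube2l3 and Ube2w, a monoubiquitinating enzyme of protein N termini, had log2 fold changes with siRNA 2 of -0.16 and -0.28. Neither passed (edgeR adjusted p = 0.195 and 0.0818).

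Of the membrane-anchored pair, Ube2j1 fell with siRNA 2. UBE2J enzymes serve the degradation of misfolded proteins of the endoplasmic reticulum. Ube2j1 (ENSMUSG00000028277, chromosome 4, 33031416 to 33052363, plus strand) had 93.8, 101.3 and 102.3 CPM in the controls, 91.6, 104 and 103 CPM with siRNA 1 and 71.6, 70.9 and 67.6 CPM with siRNA 2. The control and siRNA 1 libraries covered the same range, and the siRNA 2 libraries lay well below it. Ube2j1 fell by 29.4% with siRNA 2 (edgeR log2 fold change -0.50, SE 0.073, adjusted p = 0.0012). With siRNA 1 its value was 0.00 (95% interval -0.15 to 0.16), a direction that turns with small changes in the fit. The siRNAs differed by 0.50 (SE 0.073, edgeR adjusted p = 0.00132). The siRNA 2 call and the difference both held with each library left out. Ube2j2 had -0.11 with siRNA 1 and -0.21 with siRNA 2 (edgeR adjusted p = 0.064 for the latter).

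**Figure D4:**
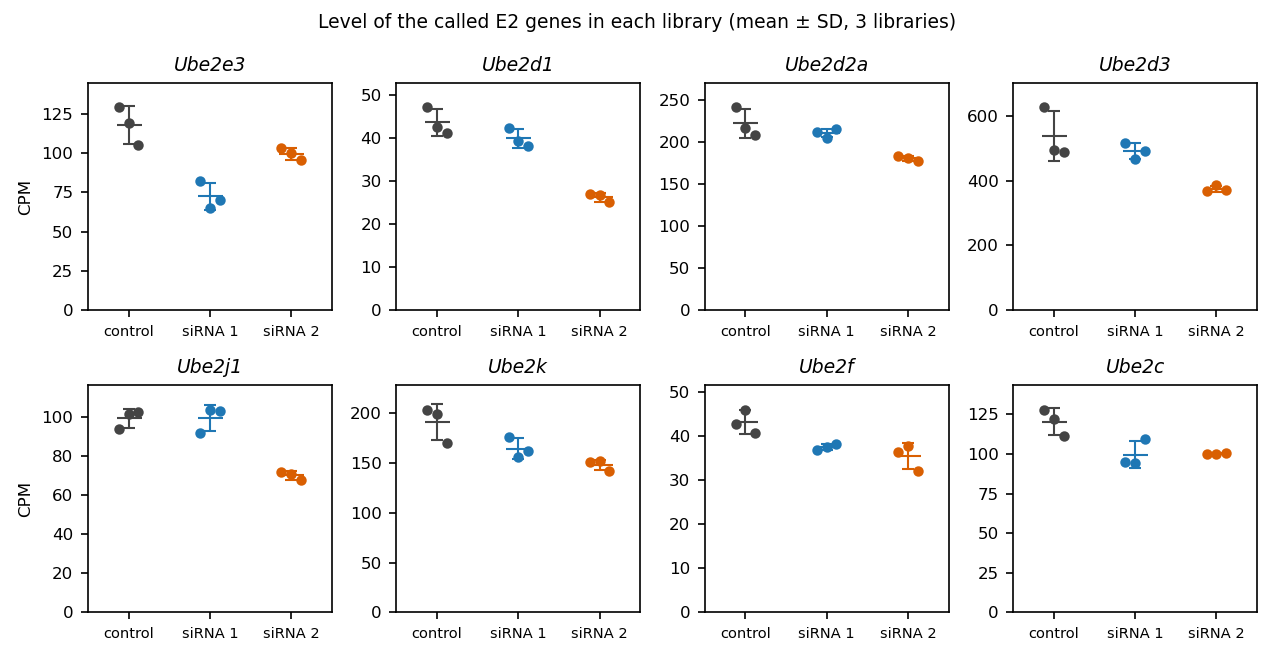
CPM of the 8 E2 genes called in a comparison, by group; points are libraries, bars are the mean and SD of 3 libraries, and each axis starts at 0. Ube2e3 is lowest with siRNA 1 (65.1 to 81.9 CPM), Ube2d1, Ube2d2a, Ube2d3 and Ube2j1 are lowest with siRNA 2, and Ube2f and Ube2c have like levels with both siRNAs.

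Ube2d1, Ube2d3 and Ube2j1 were the members that both fell with siRNA 2 and were higher with siRNA 1 than with siRNA 2. Their promoters are shown for these 3 genes, which were selected by those calls, so their shared direction is not a separate result. Each covers 250 bases before the RefSeq start and 50 after it, from a RefSeq table on build GRCm38.p6, and was found by exact match on GRCm39. Capitals mark the CCAAT box, the GC box core GGGCGG and the TTTGAA element on either strand. The Ube2d1 promoter lies at chr10:71121043-71121342 on the minus strand, that of Ube2d3 at chr3:135143743-135144042 on the plus strand and that of Ube2j1 at chr4:33031130-33031429 on the plus strand.
Ube2d1: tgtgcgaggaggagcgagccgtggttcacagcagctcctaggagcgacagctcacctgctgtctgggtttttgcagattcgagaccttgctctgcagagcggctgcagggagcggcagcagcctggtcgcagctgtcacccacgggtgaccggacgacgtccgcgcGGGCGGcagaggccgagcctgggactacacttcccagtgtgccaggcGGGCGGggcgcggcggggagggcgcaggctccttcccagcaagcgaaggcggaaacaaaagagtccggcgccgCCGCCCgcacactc
Ube2d3: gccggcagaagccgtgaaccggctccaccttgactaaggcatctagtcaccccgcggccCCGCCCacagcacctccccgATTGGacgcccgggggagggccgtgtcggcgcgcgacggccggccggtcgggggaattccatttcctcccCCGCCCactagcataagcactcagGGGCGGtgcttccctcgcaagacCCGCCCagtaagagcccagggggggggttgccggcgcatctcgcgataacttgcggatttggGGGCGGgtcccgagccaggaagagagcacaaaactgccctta
Ube2j1: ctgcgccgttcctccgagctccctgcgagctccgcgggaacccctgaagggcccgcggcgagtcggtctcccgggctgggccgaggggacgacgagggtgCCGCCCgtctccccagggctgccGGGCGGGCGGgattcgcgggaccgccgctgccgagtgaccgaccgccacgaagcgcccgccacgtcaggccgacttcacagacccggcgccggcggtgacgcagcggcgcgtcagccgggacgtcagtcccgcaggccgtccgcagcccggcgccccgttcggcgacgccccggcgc
The GC box core occurred 3, 5 and 3 times in these windows, counting overlapping matches, and 35.7% of the 32851 promoters of the table held it at least once. CCAAT occurred once in the Ube2d3 window, and 37.4% of all promoters held it. Neither TTTGAA (17.9% of all promoters) nor the stress motif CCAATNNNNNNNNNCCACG (0.12%) occurred in any of the 3 windows. The windows held 30, 29 and 52 CpG pairs, against a median of 7 over all promoters. These matches are descriptions of the sequence. Whether the windows differ from those of other E2 genes or of other expressed genes was not tested.

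The E2s that build chains linked through lysine 48, the classical signal for the proteasome, held 1 call. It was a fall in 1 of 4 genes with siRNA 2 (25%), where 8.4% of all genes tested fell. Ube2k (ENSMUSG00000029203, chromosome 5, 65694576 to 65756331, plus strand), an E2 with a ubiquitin-associated domain, had 204, 200 and 170 CPM in the controls, 176, 156 and 162 CPM with siRNA 1 and 151, 152 and 142 CPM with siRNA 2. The siRNA 2 libraries were below all others, and siRNA 1 overlapped the controls. Ube2k fell by 22.5% with siRNA 2 (edgeR log2 fold change -0.37, SE 0.0816, adjusted p = 0.0126). The call ended without control replicate 2 or siRNA 2 replicate 3, at edgeR adjusted p of 0.0502 and 0.0712. With siRNA 1 it had -0.22 (edgeR adjusted p = 0.267), and the difference between the siRNAs was 0.15 (95% interval -0.03 to 0.33). Ube2g1, Ube2g2 and Ube2r2 did not pass in any comparison. Over these 4 genes the log2 fold changes ran from -0.22 to -0.08 with siRNA 1 and from -0.37 to -0.10 with siRNA 2.

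The enzymes of lysine 63 chains held 0 calls with either siRNA by edgeR, 0 at an unadjusted p under 0.05 and 0 by DESeq2. These are 3 genes, and at that unadjusted level 6.78% of all genes were lower with siRNA 1 and 16.7% with siRNA 2. Ube2n, the catalytic partner, had log2 fold changes of 0.01 and -0.07 with siRNA 1 and siRNA 2. Ube2v1 (ENSMUSG00000078923, chromosome 2, 167449558 to 167474015, minus strand) had 244, 244 and 252 CPM in the controls, 235, 232 and 243 CPM with siRNA 1 and 230, 235 and 219 CPM with siRNA 2. All siRNA libraries lay slightly below all controls on this scale, and the log2 fold changes were -0.06 and -0.12 (edgeR adjusted p = 0.707 and 0.207). In TPM its mean with siRNA 2 was 269 ± 6.3 (SD, n = 3), next to 270.4 in the controls. Ube2v1 shares 24246 bp with Gm20431 (996 counts) on the same strand.

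Among the E2s of mitosis and DNA repair, Ube2c (ENSMUSG00000001403, chromosome 2, 164611818 to 164620742, plus strand) had 128, 122 and 111 CPM in the controls, 95.03, 94.2 and 109.6 CPM with siRNA 1 and 99.9, 100.1 and 100.96 CPM with siRNA 2. Both siRNA groups lay below the controls, although 1 siRNA 1 library came close to the lowest of them. Ube2c fell by 16.7% with siRNA 2 (edgeR log2 fold change -0.26, SE 0.0784, adjusted p = 0.0407). The value with siRNA 1 was of like size but did not pass (-0.27, SE 0.0785, edgeR adjusted p = 0.139), and the siRNAs differed by -0.01 (95% interval -0.18 to 0.16). The siRNA 2 call ended without control replicate 1 or 2 or any siRNA 2 replicate, where edgeR gave adjusted p from 0.0862 to 0.124. Ube2c is a cell cycle gene. Of 12 proliferation genes measured beside it, 2 fell with siRNA 2 by edgeR and 0 rose, with a list median of -0.08. The falls were those of Birc5 (-0.88) and Aurka (-0.34), or 16.7% of the list, where 8.4% of all genes tested fell and 7.81% rose. DESeq2 also called Cdk1 lower (-0.18, adjusted p = 0.0333) and Mki67 higher (0.45, adjusted p = 0.0453), for which edgeR gave adjusted p of 0.057 and 0.1003. Aurka lost its call without siRNA 2 replicate 3, at an edgeR adjusted p of 0.0514. With siRNA 1 the median was -0.19 and 8 of the 12 were lower and 0 higher at an unadjusted p under 0.05 by edgeR. At that level 6.78% of all genes were lower and 6.85% higher with siRNA 1. The list held 0 edgeR calls and 1 DESeq2 call with siRNA 1, Birc5 (-0.32, DESeq2 adjusted p = 0.0227). The part of proliferation in the Ube2c values was not tested.

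Ube2s (ENSMUSG00000060860, chromosome 7, 4797545 to 4815589, minus strand), the chain-extending partner of Ube2c, had 177, 199 and 185 CPM in the controls, 159, 159 and 176 CPM with siRNA 1 and 173, 181 and 166 CPM with siRNA 2. The siRNA 1 libraries lay under the controls and the siRNA 2 libraries overlapped them. Its log2 fold changes were -0.18 and -0.11, neither past the threshold (edgeR adjusted p = 0.279 and 0.288). It overlaps Rpl28 on the opposite strand by 521 bp, and Rpl28 held 57608 counts against 18519 for Ube2s. The strand setting of the counting step was not given in the sources used here, so the Ube2s level is uncertain. The RAD6 genes Ube2a and Ube2b and the Fanconi anaemia E2 Ube2t had -0.21, -0.33 and -0.16 with siRNA 2, none past the edgeR threshold.

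Of the E2s of other modifiers, 1 of 5 fell with siRNA 2 (20%), where 8.4% of all genes tested fell. Ube2f (ENSMUSG00000034343, chromosome 1, 91178026 to 91218059, plus strand), which brings NEDD8 to the cullin Cul5, had 42.7, 46.1 and 40.8 CPM in the controls, 36.9, 37.5 and 38.2 CPM with siRNA 1 and 36.4, 37.9 and 32.1 CPM with siRNA 2. All siRNA libraries lay below all controls, and the siRNA groups overlapped each other. It fell by 17.97% with siRNA 2 (edgeR log2 fold change -0.29, SE 0.0826, adjusted p = 0.0371) and had -0.20 with siRNA 1 (SE 0.0825, edgeR adjusted p = 0.305). The siRNA 2 call ended without control replicate 2, siRNA 1 replicate 3 or any siRNA 2 replicate, where edgeR gave adjusted p from 0.0528 to 0.168. Ube2m (ENSMUSG00000005575, chromosome 7, 12769047 to 12772202, minus strand), the NEDD8 enzyme of the other cullins, had 156, 134 and 150.1 CPM in the controls, 144, 118 and 137 CPM with siRNA 1 and 126, 123 and 117 CPM with siRNA 2. Its siRNA 2 libraries were below the controls and its siRNA 1 libraries overlapped them, but the log2 fold change of -0.26 did not pass (SE 0.0861, edgeR adjusted p = 0.0551), while DESeq2 called it (adjusted p = 0.0385). Ube2z and the ISG15 enzyme Ube2l6 had -0.01 and 0.22 with siRNA 2.

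Of the less common members, with Ube2cbp counted among them, none of the 6 tested passed against the controls by edgeR or DESeq2. At an unadjusted p under 0.05 by edgeR 0 were higher, 1 was lower with siRNA 1 and 2 were lower with siRNA 2. Of all genes, 6.78% and 16.7% were lower at that level with siRNA 1 and siRNA 2. Ube2o, a large enzyme that joins E2 and E3 activity in 1 protein, had 0.18 and 0.15 with siRNA 1 and siRNA 2. Ube2h and Ube2q1 had 0.05 and -0.20 with siRNA 1 and -0.20 and -0.16 with siRNA 2. All siRNA libraries of Ube2q1 lay below all controls, although neither value passed (edgeR adjusted p = 0.152 and 0.0814).

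**Figure D5:**
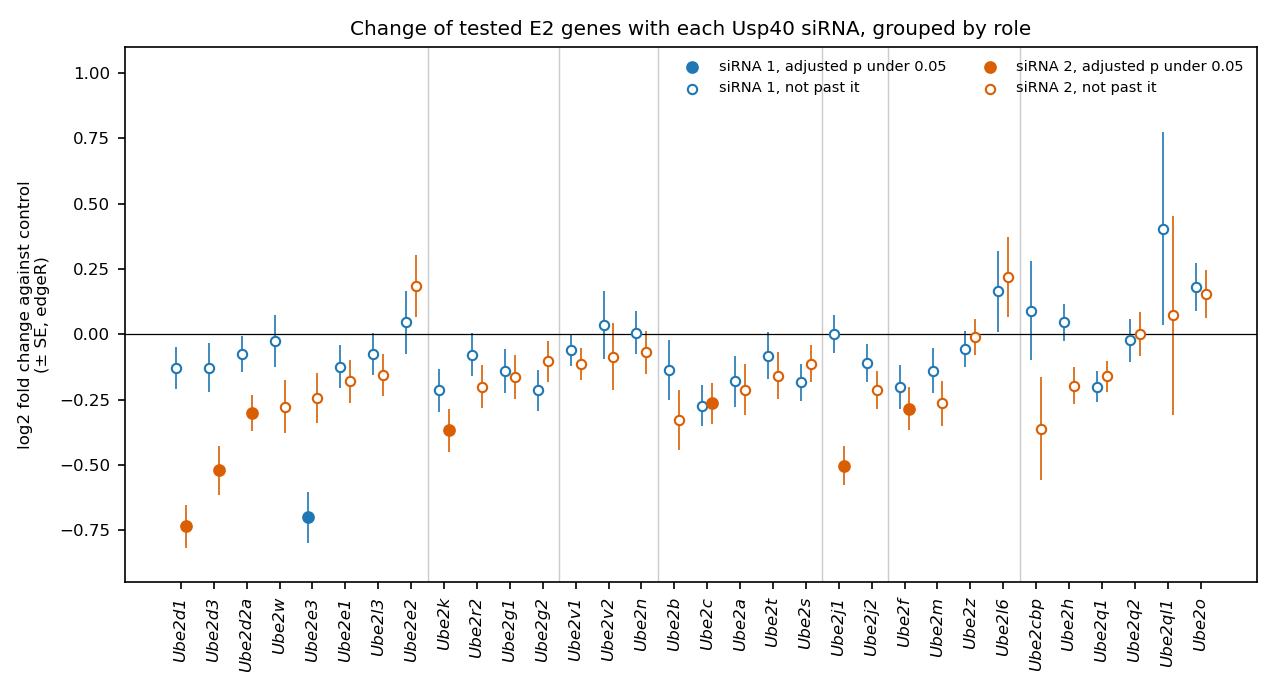
Log2 fold change of tested E2 genes against the control siRNA, with siRNA 1 in blue and siRNA 2 in orange, grouped by role between vertical lines; bars are standard errors from edgeR and filled points have an adjusted p under 0.05. Most points lie under 0, the filled ones are Ube2e3 with siRNA 1 (-0.70) and 7 genes with siRNA 2 (-0.74 to -0.26), and no filled point lies above 0.

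The siRNAs were then compared directly, in the same fit of all 9 libraries, so the controls entered only through the filter, the scaling and the estimate of spread. Of the E2 genes, 3 were higher with siRNA 1 than with siRNA 2 (Ube2d1, Ube2j1 and Ube2d3) and 1 was lower (Ube2e3). These are 9.09% and 3.03% of the tested members, where 4.25% and 2.49% of all genes tested passed in those directions. Of the 33 tested members, 9 were higher and 1 was lower with siRNA 1 without overlap of the groups. Of all genes, 15.6% and 15.3% were. The median difference of the E2 genes was 0.08 on the CPM scale and -0.02 on the log2(TPM + 1) scale, so its direction depends on the scale.

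In the authors' deposited table the same calls stood for the 8 genes. Its log2 values are written as control over siRNA, so that a fall has a positive sign there. For siRNA 1 the authors' deposited table gives 0.71 for Ube2e3 (adjusted p-value 1.32e-08). For siRNA 2 the authors' deposited table gives 0.74 for Ube2d1 (adjusted p-value 7.52e-10), 0.53 for Ube2d3 and 0.51 for Ube2j1. In the authors' deposited table Ube2b and Ube2m also lie under an adjusted p-value of 0.05 for siRNA 2, at 0.0296 and 0.0406.

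The other genes of the conjugation pathway were followed in 11 lists, from E1 enzymes to ligases, of which 124 of 125 genes were tested. With siRNA 1, 1 rose and 1 fell, or 0.806% in each direction, where 0.627% of all genes rose and 1.03% fell. With siRNA 2, 6 rose and 13 fell, or 4.84% and 10.5%, where 7.81% of all genes rose and 8.4% fell. The lists together had a median log2 fold change of -0.01 with siRNA 1 and -0.02 with siRNA 2, beside 0.01 and -0.01 over all genes tested.

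Upstream of the E2s, 1 of 9 E1 genes changed, with siRNA 2 (11.1%, where 8.4% of all genes tested fell). Sae1, a subunit of the SUMO-activating enzyme, had 177, 197 and 165 CPM in the controls, 157, 144 and 156 CPM with siRNA 1 and 114, 113 and 106 CPM with siRNA 2. The 3 groups did not overlap. Sae1 fell with siRNA 2 (edgeR log2 fold change -0.70, SE 0.0771, adjusted p = 0.000194) and was higher with siRNA 1 than with siRNA 2 (0.46, SE 0.0772, edgeR adjusted p = 0.00355). Its siRNA 2 call held with each library left out. Of 12 genes for ubiquitin and ubiquitin-like proteins, 0 passed with siRNA 2 by edgeR or DESeq2, with 2 lower and 0 higher at an unadjusted p under 0.05. At that level 16.7% of all genes were lower and 17% higher.

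Of 8 tested E2 and E2-like genes with other names, 3 fell with siRNA 2 and 0 rose by edgeR. The falls are 37.5% of them, where 8.4% of all genes tested fell and 7.81% rose. DESeq2 called 3 lower and 1 higher, and 9.13% of all genes it tested lower and 8.92% higher. The gene it called higher was Birc6, a large protein that joins E2 and E3 activity, with a log2 fold change of 0.55 (SE 0.172, edgeR adjusted p = 0.0511, DESeq2 adjusted p = 0.0117). Cdc34, the E2 of cullin ligases, had a log2 fold change of -0.37 (SE 0.0786, edgeR adjusted p = 0.00964), Aktip, an inactive E2-like protein, -0.28, and Tsg101, an inactive E2-like subunit of the endosomal sorting machinery, -0.24. Their calls ended without 2, 4 and 7 of the 9 libraries in turn, each of them without siRNA 2 replicates 1 and 3, at edgeR adjusted p of up to 0.0533, 0.0996 and 0.158.

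Among E3 partners, 2 of 16 genes of the anaphase-promoting complex fell with siRNA 2 and 1 rose. These are 12.5% and 6.25%, where 8.4% of all genes tested fell with siRNA 2 and 7.81% rose. Cdc27 fell (-0.46, SE 0.0745, edgeR adjusted p = 0.0023) and kept its call with each library left out. Anapc16 (-0.24) fell as well, and Anapc4 rose with siRNA 1 (0.39) and siRNA 2 (0.29). Of 9 ligases and cofactors of endoplasmic reticulum degradation, Rnf5 (-0.46, SE 0.0886, edgeR adjusted p = 0.00618), Rnf185 (-0.27) and Syvn1 (-0.25) fell and Marchf6 (0.30) rose with siRNA 2. Of the SUMO genes Rnf4, which ubiquitinates SUMO-bearing proteins, fell (-0.31) and the SUMO ligase Ranbp2 rose (0.39). Of the cullin and neddylation genes Cul5 (-0.26) and Dcun1d3 (-0.29) fell and Dcun1d2 (0.27) rose with siRNA 2, and Dcun1d4 fell with siRNA 1 (-0.45). Nedd4 (0.33) rose and Smurf2 (-0.28) fell among 20 HECT, RBR and chain-extending ligases, and Fanci (0.39) rose among 10 RAD6, Fanconi and H2B genes. Of these, Rnf5 and Rnf4 kept their calls with each library left out. The siRNA 2 calls of Anapc4, Anapc16, Marchf6, Rnf185, Syvn1, Ranbp2, Cul5, Nedd4, Smurf2 and Fanci each ended without siRNA 2 replicate 3 and without 1 to 5 further libraries, at edgeR adjusted p of up to 0.163. Dcun1d2 lost its call without 7 of the 9 libraries and Dcun1d3 whichever library was left out (edgeR adjusted p 0.0537 to 0.171). With siRNA 1, Anapc4 lost its call without control replicate 2 or siRNA 1 replicate 1 or 3, and Dcun1d4 without control replicate 2 or siRNA 1 replicate 3. The lists of lysine 63 ligases (8 genes) and the ISG15 pathway (5 genes) held 0 calls with siRNA 2 by edgeR and by DESeq2. At an unadjusted p under 0.05 by edgeR, 1 and 0 of them were lower and 0 higher in both. Of all genes, 16.7% were lower and 17% higher at that level.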

How the data were processed

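Poly(A) RNA of immortalized mouse podocytes was measured in 9 libraries, 3 per group. Per the submitters' processing notes and the labels, CLC Genomics Workbench 23.02, DESeq2 and build GRCm39 were used. The counting annotation and strand setting were not given in the sources used here. In 1 table, the authors deposited gene read counts, RPKM, TPM and a signal, their own scaled CPM, per library, named so per the file headers. The authors also deposited their own comparisons as log2 fold changes, a signed linear fold (a score here) and p-values. RPKM and TPM served for levels between genes, and the scaled CPM and signed fold were not used further.

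The counts were tested here with edgeR 4.0.16 (R 4.3.3), with filterByExpr, TMM scaling and the robust quasi-likelihood test, on all 9 libraries with group as the only term. P-values were adjusted by Benjamini-Hochberg over all 11800 genes tested in each of 3 contrasts, with calls at an adjusted p under 0.05. Standard errors were derived from the F value. Depth was 9786270 to 13675426 counts, the biological coefficient of variation 8.56%, and 33 of 37 members passed the filter. CPM use TMM-scaled library sizes and are compared within a gene only. Floors for 0 counts cover counting error alone. On simulated data of 11780 genes made for siRNA 2 against control, the test recovered 86% of genes changed 1.5-fold and 100% of those changed 2-fold, with 3 false calls. The simulation gave all genes and groups the same biological spread, held no length trend and changed only genes with many counts. These rates therefore need not hold for the real libraries.

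Members called in any contrast and the 5 highest in controls were named with full statistics. Of each pathway list, up to 4 called members with the largest change with siRNA 2 and up to 2 with siRNA 1 were named. A few genes are left out of the text and of the named plots and are not reported here. The members and lists were chosen with earlier results of these data known. Alternatives were DESeq2 size factors, no filter, DESeq2 1.42.0, a gene length offset, a replicate block, each library left out, and limma 3.58.1 on log2(TPM + 1) with a pseudocount of 1, the last chosen after seeing the data.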

Additional observations from a re-analysis of the deposited data

Results flagged for a closer look

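For 11 named genes the effects of the siRNAs differed by a direct edgeR test of siRNA 1 against siRNA 2, and 4 of them are E2 genes. The log2 differences, siRNA 1 minus siRNA 2, were 0.61 for Ube2d1 (SE 0.082, edgeR adjusted p = 0.00084), 0.50 for Ube2j1 (SE 0.073, edgeR adjusted p = 0.00132), 0.39 for Ube2d3 (SE 0.0936, edgeR adjusted p = 0.0265) and -0.46 for Ube2e3 (SE 0.0975, edgeR adjusted p = 0.0148). Among the other genes of the pathway, Sae1 (0.46), Cdc27 (0.42), Aktip (0.29) and Rnf4 (0.24) were higher with siRNA 1 than with siRNA 2, as was the proliferation gene Birc5 (0.56). Dcun1d4 (-0.52) and Fanci (-0.50) were lower with siRNA 1. Usp40 itself did not pass in this comparison (-0.29, SE 0.121, edgeR adjusted p = 0.185).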

How the results depend on the processing

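Of 7 alternatives that kept every library, 6 kept the call of all 7 E2 falls with siRNA 2, and all 7 kept that of Ube2e3 with siRNA 1. Limma on log2(TPM + 1) lost Ube2c (-0.15, adjusted p = 0.171) and Ube2f (-0.17, adjusted p = 0.247). The cause of the differences given here, also of those with a library left out, was not tested. DESeq2 gave 5 E2 genes higher with siRNA 1 than with siRNA 2 in place of 3, and 3 falls with siRNA 1 and 10 rises with siRNA 2 in place of 1 and 6 in the 12 gene lists, 11 of the pathway and 1 of proliferation. Without the filter on low counts the list falls with siRNA 1 were 2. The gene length offset gave 1 E2 rise with siRNA 2 (Ube2e2), 5 E2 genes higher with siRNA 1 than with siRNA 2, 5 list falls with siRNA 1 and 9 list genes higher with siRNA 1 than with siRNA 2 in place of 5. Limma on log2(TPM + 1) gave 0 list falls with siRNA 1, 10 rises and 5 falls with siRNA 2 in place of 6 and 15, and 2 list genes higher with siRNA 1 than with siRNA 2. List calls with siRNA 2 that ended under the length offset were those of Cdc34, Tsg101, Anapc16, Nedd4 and Dcun1d2. Limma on log2(TPM + 1) ended those of Aktip, Tsg101, Anapc16, Rnf185, Syvn1, Smurf2, Dcun1d3, Cul5, Rnf4 and Aurka, and that of Dcun1d4 with siRNA 1. Tsg101 and Dcun1d3 lost theirs with DESeq2 size factors and with the replicate block, Tsg101, Dcun1d3 and Dcun1d2 without the filter, and Dcun1d3 and Dcun1d2 with DESeq2.

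Values near 0 changed sign. Ube2j1 with siRNA 1 became -0.0057 without the filter and -0.00042 with the replicate block and length offset, and ran from -0.039 to 0.057 with a library left out. Ube2s with siRNA 2 became 0.0013 with the replicate block and length offset. Between the siRNAs, limma on log2(TPM + 1) gave -0.015 for Ube2f, -0.047 for Ube2v1 and -0.023 for the E2 median, and Ube2c ran from -0.084 to 0.028 with a library left out.

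With 1 library left out in turn, E2 falls with siRNA 2 ran from 3 to 13, and E2 genes higher and lower with siRNA 1 than with siRNA 2 from 2 to 5 and from 0 to 1. In the 12 lists, rises and falls ran from 0 to 1 and 0 to 3 with siRNA 1, from 0 to 11 and 5 to 21 with siRNA 2, and from 3 to 8 and 1 to 7 between the siRNAs.

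Groups share replicate numbers in the labels, and whether these numbers pair the libraries could not be decided from so few libraries. Of 9 correlations of same-numbered libraries' deviations from their group means, 4 were above 0.1 (-0.14 to 0.43). Of 18 between differently numbered libraries, 5 were (-0.43 to 0.38). With the replicate block in the fit, all 7 E2 falls with siRNA 2 and the Ube2e3 fall with siRNA 1 remained, 10 E2 genes fell with siRNA 2, and list rises with siRNA 2 were 12. The replicate block with the gene length offset gave 14 E2 falls and 2 rises with siRNA 2, 5 E2 genes higher with siRNA 1 than with siRNA 2, 6 list falls with siRNA 1, 11 list rises with siRNA 2, and 10 higher and 7 lower list genes between the siRNAs. It ended the siRNA 2 calls of Tsg101, Anapc16, Nedd4 and Dcun1d2.

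Ube2u, Ube2d2b, Ube2dnl1 and Ube2dnl2 did not have enough counts to be tested, so changes in them were not detectable. Whether greater depth would make them testable was not tested. Each group had 3 libraries, and whether more libraries would keep or end the calls of the smaller falls was not tested.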
